A study of Mus musculus with 2 samples.

Results

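The expression of 9 genes that have been tied to the pacemaking of ureter peristalsis was followed in newborn mouse ureters in which SHH signaling had been blocked. They were the ligand gene Kitl and its receptor gene Kit, the HCN channel genes Hcn2, Hcn3 and Hcn4, the T-type calcium channel genes Cacna1g and Cacna1h, the L-type calcium channel gene Cacna1d, and the chloride channel gene Ano1. All probes that the array names after these genes were taken, which gave 14 of the 39428 probes measured on both arrays and 9 of 30011 gene names. Where a gene had several probes, the brightest over the 4 channels represented it. In 8 of the 9 genes this probe was well above background and was tested, and with the other probes 12 of the 14 were tested.

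Ureters of wildtype NMRI mice at postnatal day 0 were explanted and cultured for 18 h with 10 µM cyclopamine, which blocks the SHH signal transducer SMO, or with the solvent DMF at 1:1000 (control). RNA from pools of ureters was compared on 2 two-colour arrays, so that each array set a cyclopamine pool against a control pool of the same sex. Replicate 1 held female pools with the control in the green channel, and replicate 2 held male pools with the control in the red channel. Sex, dye orientation and replicate therefore cannot be told apart, and 4 pools make up the whole comparison. All pools shared strain, genotype, stage and culture time, and only acute inhibition in explants was examined. A channel name in the labels gives another inhibitor, IWP-2, whereas titles, treatment entries and protocol give cyclopamine.

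Peristaltic waves of the ureter start in spontaneously active cells near the renal pelvis and travel along the smooth muscle cells (SMCs) as calcium-driven depolarisations. HCN channels carry an inward current when the membrane hyperpolarises, and T-type calcium channels open close to the resting potential, so both can bring a cell back to its firing threshold. KIT is a receptor tyrosine kinase and ANO1 a calcium-activated chloride channel, and both mark the interstitial cells of Cajal that pace the gut. In the mouse urinary tract, KIT and HCN3 have been described in pacemaker tissue, and genetic studies have linked these cells to the hedgehog effector GLI3.

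The readout of SHH signaling fell on both arrays, and 3 of the 4 genes in its list (Ptch1, Gli1 and Hhip) were called lower. The receptor gene Ptch1 had log2 ratios of cyclopamine over control of -1.13 on replicate 1 and -1.49 on replicate 2 (limma adjusted p = 0.000248), and Gli1 had -1.83 and -2.09 (adjusted p = 1.76e-08). Hhip, a decoy for hedgehog ligands, had -0.31 and -1.99 (adjusted p = 0.00683). All 10 SMC markers and all 10 urothelium markers were well above background in every channel, whereas 4 of 6 kidney tubule genes were too dim to be tested. Of the other 2, 0 were called and 1 was higher at an unadjusted p under 0.05, as were 1279 of all 25975 tested probes. The SMC gene Acta2 had ratios of -0.06 and -0.92 (adjusted p = 0.504). Replicate 1 was brighter than replicate 2, with a 75th percentile of the control channel of 3337 against 628, so that levels are also given on the log2 scale over the 75th percentile of the respective channel. The SD between the spots of a probe had a median of 0.0456 on replicate 1 and 0.0493 on replicate 2, on the log2 scale.

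None of the 8 tested pacemaker genes changed beyond the limit of limma (by the main probe, 0 at an adjusted p under 0.05), against 1.3% of all 19398 tested genes (0.866% lower and 0.438% higher). At an unadjusted p under 0.05 there were also 0 by the main probe, against 9.39% of all 25975 tested probes (1161 lower and 1279 higher). The mean log2 ratios ran from -0.42 for Kitl to 0.31 for Ano1. Their median was 0.12, with 0.17 on replicate 1 and -0.13 on replicate 2, while the medians of all tested genes lay at -0.0026 and -0.0002. Kitl and Cacna1h were lower with cyclopamine on both arrays (2 of 8, with 28.9% of all genes), Kit and Hcn3 were higher on both (2 of 8, with 28.6%), and Hcn2, Cacna1g, Cacna1d and Ano1 took opposite signs (4 of 8, with 42.4%). All 4 of the latter were higher on replicate 1 and lower on replicate 2, as were 21.1% of all genes. A filter with the limits of the study asks for a control level above 100 and a shift of 1.5-fold or more that each array shows with the same sign. Of the 7 members bright enough for it, 0 passed, whereas 0.63% of all eligible genes passed as lower and 0.212% as higher. In these bulk samples, fewer cells of a type and less RNA per cell cannot be told apart.

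**Figure D1:**
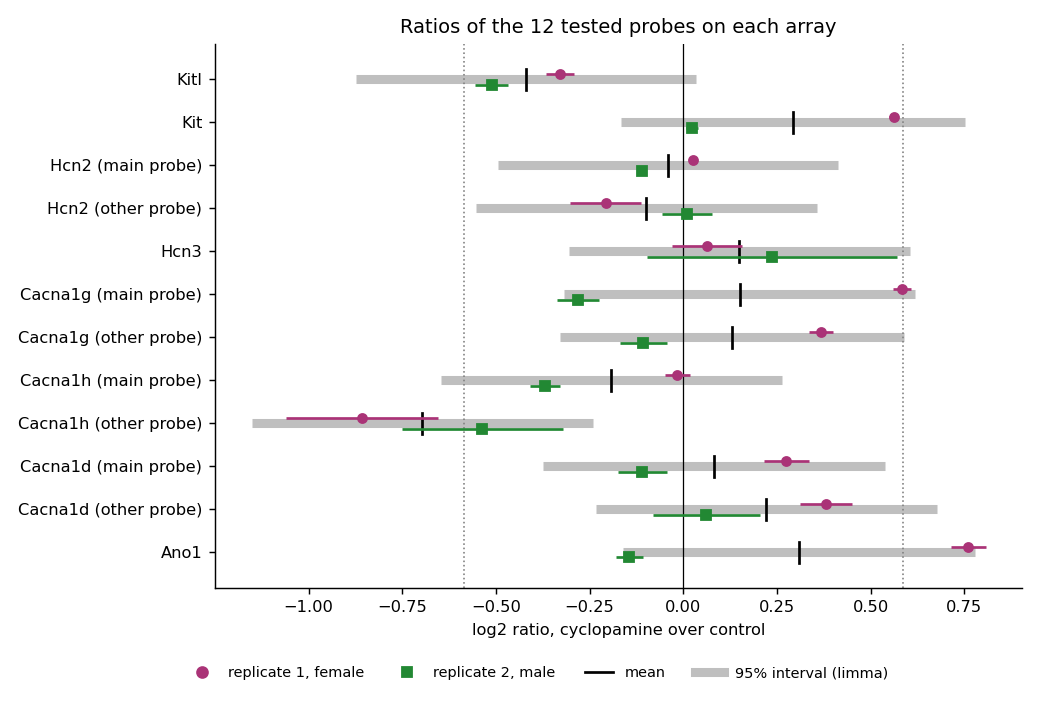
Log2 ratios of cyclopamine over control for the 12 tested probes of the 8 genes, with circles for replicate 1 and squares for replicate 2 (error bars, SD between spots), a black tick at the mean and a grey bar for the 95% interval of limma. Dotted lines mark a 1.5-fold change, and the interval of a less bright Cacna1h probe (-1.15 to -0.24) is the only one that does not include 0.

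Kitl encodes the KIT ligand, which is needed for the survival and migration of KIT-carrying cells. Among the main probes of the 8 genes it had the mean ratio farthest from 0. The probe that read it lies at chr10:99558962-99559021 of build mm9. The first 30 of its 60 bases are shown here together with those of the Kit probe, because they report the ligand and the receptor.
Kitl: tcttcagtcacaacctgcagcctgtcgtta
Kit: gtcaggtacttaaggggccacaccattgag
The Kitl intensity was 1568 in the control and 1248 in the cyclopamine pool of replicate 1, and 316 and 222 in those of replicate 2. On the percentile scale the controls lay at -1.09 and -0.99 and the cyclopamine pools at -1.43 and -1.50. Both cyclopamine pools were thus below both control pools, as also with a less bright Cacna1h probe. Among the main probes this was found for no other member (1 of 8), and it was found for 14.3% of all genes. The log2 ratio was -0.33 on replicate 1 and -0.51 on replicate 2, a mean of -0.42 ± 0.13 (SD, n = 2) or 0.747-fold. Single spots ran from -0.38 to -0.30 and from -0.54 to -0.45. The 95% interval of limma was -0.87 to 0.03 (adjusted p = 0.582, unadjusted p = 0.0688), and 5.84% of tested probes had a mean at or below that of Kitl.

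Kit was read by a probe at chr5:76052394-76052453 (+ strand, mm9). Its intensity was 4136 in the control and 6104 in the cyclopamine pool of replicate 1, and 1122 and 1141 in the pools of replicate 2. The ratios were 0.56 and 0.02, a mean of 0.29 ± 0.38 (SD, n = 2, adjusted p = 0.726 by limma, 95% interval -0.17 to 0.75). The spots lay between 0.55 and 0.57 on replicate 1, where 1 outlier spot was left out, and between 0.01 and 0.04 on replicate 2, so that the arrays differed by more than the spots of either. On the percentile scale 3 pools lay within 0.0251 of each other, at 0.84 to 0.86, and the control pool of replicate 1 lay below them at 0.31. The cyclopamine pools were above the controls without overlap in Kit and in Hcn3 (2 of 8, with 13.8% of all genes).

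**Figure D2:**
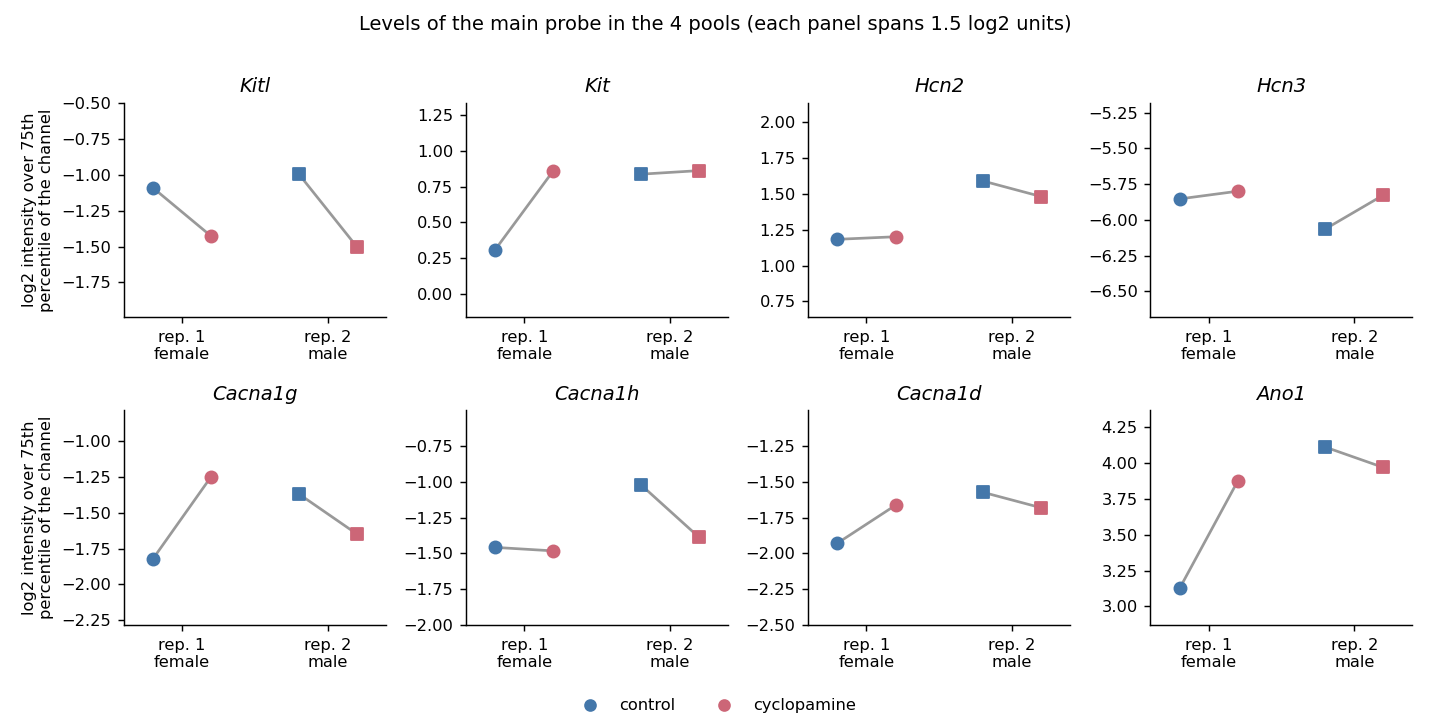
Level of the main probe of each of the 8 tested genes in the 4 pools, as log2 intensity over the 75th percentile of its channel, with blue for control, red for cyclopamine, circles for replicate 1 and squares for replicate 2, and lines joining the pools of an array. Panels have their own position on the axis but the same span, and levels of different genes are not comparable; the control pool of replicate 1 lies lowest in Kit, Cacna1g, Cacna1d and Ano1.

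The 3 HCN genes of the set were not all at measurable levels. For Hcn2 the control and cyclopamine pools had intensities of 7578 and 7721 on replicate 1, and of 1891 and 1753 on replicate 2. The groups overlapped, and the ratios of 0.03 and -0.11 had a mean of -0.04 ± 0.10 (SD, n = 2, adjusted p = 0.969, 95% interval -0.49 to 0.41). A probe 180 bp away gave -0.21 and 0.01, opposite in sign to the main probe on each array.

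Hcn3, the family member described in the pacemaker tissue of the mouse kidney pelvis, was dim. Its intensity was 57.7 in the control and 60.3 in the cyclopamine pool of replicate 1, and 9.38 and 11.1 in those of replicate 2, which placed it under the control limit of 100 of the study. The ratios were 0.06 and 0.24, a mean of 0.15 ± 0.12 (SD, n = 2, adjusted p = 0.875, 95% interval -0.30 to 0.60). On replicate 2 its spots spread from -0.23 to 0.56 with an SD of 0.33, so the sign on that array is within the spread of its own spots. Hcn4, the main HCN gene of the sinoatrial node, had 0 of 4 spots well above background in each of the 4 channels, and no ratio is given.

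Cacna1g and Cacna1h encode the T-type channels of the list. Cacna1g had intensities of 944 and 1414 on replicate 1 and of 243 and 200 on replicate 2 (control, then cyclopamine). The cyclopamine pool was the higher on replicate 1 and the lower on replicate 2, with ratios of 0.58 and -0.28 and a mean of 0.15 ± 0.61 (SD, n = 2, adjusted p = 0.878, 95% interval -0.32 to 0.62). A probe 596 bp away repeated both signs with 0.37 and -0.11.

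Cacna1h was carried by 3 probes that did not read alike, and their first 30 of 60 bases are given since the reading depended on the probe. They are listed from the brightest to the dimmest, all on the - strand of build mm9, at chr17:25511235-25511294, chr17:25568825-25568884 and chr17:25569818-25569877.
Cacna1h main probe: caaagctaaggggaggggaggggcaaagca
Cacna1h other probe: tctctaccttgtgtgtttaactgtataaat
Cacna1h dim probe: cttcttctgcctcgggcaaaccacgcggcc
The array annotation assigns the main and the dim probe to RefSeq transcripts and the other probe to an Ensembl transcript, 57.59 kb from the main probe, and names no exon or UTR for them. With the main probe the intensity was 1214 in the control and 1201 in the cyclopamine pool of replicate 1, and 310 and 240 in those of replicate 2. The ratios were -0.02 and -0.37, a mean of -0.19 ± 0.25 (SD, n = 2, adjusted p = 0.829, 95% interval -0.65 to 0.26), and the groups overlapped on the percentile scale.

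The other Cacna1h probe had intensities of 126 and 69.5 on replicate 1 and of 18.7 and 12.9 on replicate 2, in the order control and cyclopamine. On the percentile scale its controls lay at -4.73 and -5.07 and its cyclopamine pools at -5.59 and -5.61, so the groups did not overlap. The ratios were -0.86 and -0.54, a mean of -0.70 ± 0.23 (SD, n = 2) or 0.617-fold, and 1.33% of tested probes had a mean at or below it. It was the only 1 of the 12 probes with an unadjusted p under 0.05 (unadjusted p = 0.00338), as were 9.39% of all tested probes, and did not pass after adjustment (adjusted p = 0.147 by limma, 95% interval -1.15 to -0.24), as 1.22% of all probes did. After removal of the trend along gene length described below, its mean was -0.79 with an adjusted p of 0.0235. With normexp background correction it was -0.40 (adjusted p = 0.616). The dim probe was well above background in 3 of 3 spots of both channels on replicate 1 but in 0 of 3 control and 1 of 3 cyclopamine spots on replicate 2, and was not tested.

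Cacna1d encodes an L-type channel that opens at more negative voltages than that of SMCs. Its intensities were 876 and 1060 on replicate 1 and 211 and 196 on replicate 2 (control, then cyclopamine). The ratios of 0.27 and -0.11 had opposite signs, with a mean of 0.08 ± 0.27 (SD, n = 2, adjusted p = 0.938, 95% interval -0.37 to 0.54), and a probe 1486 bp away gave 0.38 and 0.06.

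Ano1 was read at chr7:151774604-151774663 (- strand, mm9) by a probe that starts as follows, shown because its main-probe ratio on replicate 1 was the farthest from 0 among the main probes.
Ano1: cttgtgcagtgatgtggtttccaatgatgt
The intensity was 29108 in the control and 49293 in the cyclopamine pool of replicate 1, and 10865 and 9834 in those of replicate 2. On replicate 1 the ratio was 0.76 or 1.69-fold, and on replicate 2 it was -0.14 or 0.905-fold. The mean of 0.31 ± 0.64 (SD, n = 2) did not pass the test (adjusted p = 0.718 by limma, 95% interval -0.16 to 0.78). Read as red over green, the ratio was positive on both arrays, at 0.76 and 0.14, and a contribution of the dye was not tested. On the percentile scale the control pool of replicate 1 lay at 3.12, and the other 3 pools between 3.88 and 4.11.

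**Figure D3:**
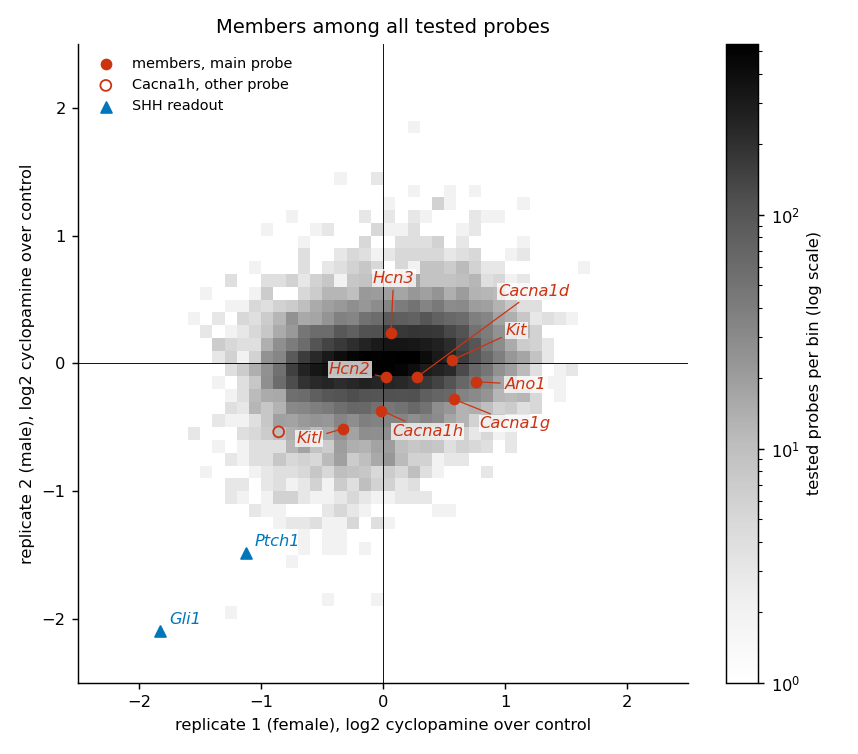
Log2 ratios of cyclopamine over control on replicate 1 (horizontal axis) and replicate 2 (vertical axis), with grey squares for the number of all 25975 tested probes per bin, filled circles for the 8 genes by their main probe, an open circle for the other Cacna1h probe and triangles for Ptch1 and Gli1. The 8 genes lie within the cloud of probes, with Ano1 at 0.76 and -0.14, while Ptch1 and Gli1 lie outside it at the lower left.

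The 4 pools were next compared for the pool that stood farthest from the median of the other 3. It was the control pool of replicate 1, on the low side, in Kit, Cacna1g, Cacna1d and Ano1. This held for 28% of all tested genes, and in another 26.8% the same pool stood farthest on the high side. The distance from the median of the others was -0.55 in Kit, -0.46 in Cacna1g, -0.27 in Cacna1d and -0.85 in Ano1. In Kitl, Hcn2 and Cacna1h the control pool of replicate 2 stood highest (6.02% of all genes), and in Hcn3 it stood lowest (4.94%). In Kit, Cacna1g, Cacna1d and Ano1 the control pool of replicate 1 thus lay below the control of replicate 2 as well as below both cyclopamine pools. Whether sex, dye or the pool accounts for this was not tested.

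Ratios on replicate 1 moved with the length of the gene. Spearman's rho between genomic gene length and ratio over 22468 probes was 0.44 on replicate 1 and 0.0349 on replicate 2, as a description across genes that share each array. The bin of genes with a median length of 86.4 kb, near Kit (81.7 kb) and Kitl (84.8 kb), had a median ratio of 0.29 on replicate 1 and 0.03 on replicate 2. Against this trend Kit retained ratios of 0.35 and 0.01 and Ano1 (163 kb) 0.49 and -0.13. For Kitl the values became -0.54 and -0.52, with a mean of -0.53 (adjusted p = 0.219), so that both arrays then gave nearly the same ratio. Cacna1d (451 kb), the longest of the 8, went from a mean of 0.08 to -0.06. A contribution of gene length to these ratios was not tested.

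**Figure D4:**
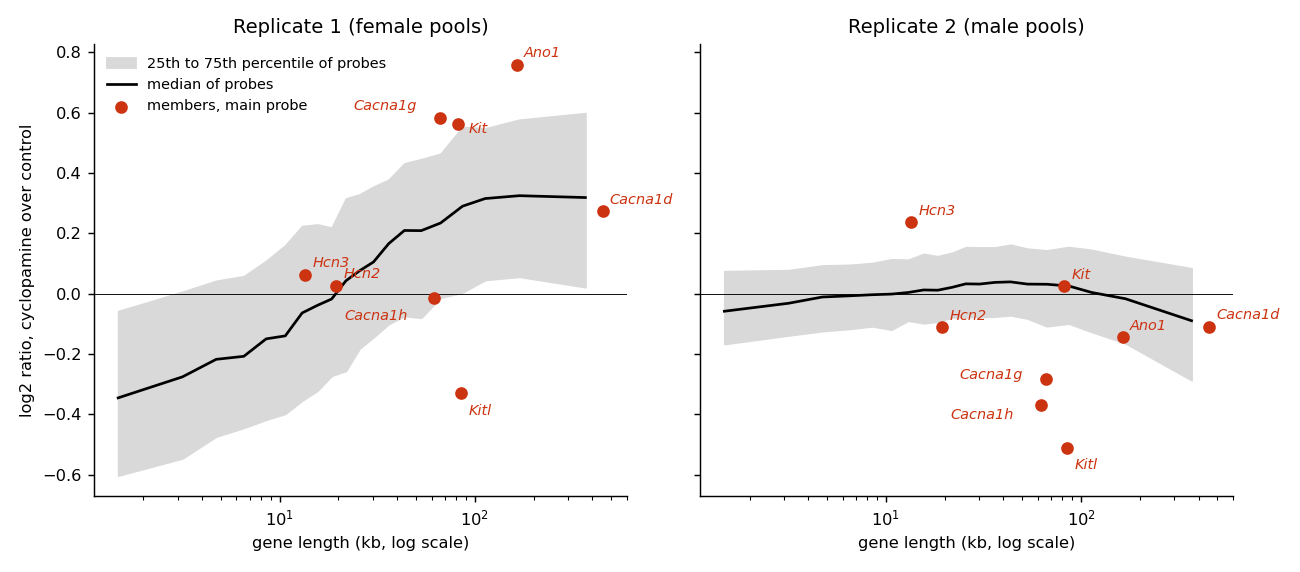
Log2 ratio of cyclopamine over control against gene length (log scale) on replicate 1 (left) and replicate 2 (right), with the line for the median and the band for the 25th to 75th percentile of tested probes in 20 bins of length, and dots for the 8 genes by their main probe. On replicate 1 the median climbs from -0.35 in the bin of the shortest genes to 0.32 in that of the longest, and Kitl lies below the band on both arrays.

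Genes that act downstream of KIT were examined as a list of 20 genes for adaptors, kinases, phosphatases, transcription factors and a ubiquitin ligase, all of which were tested. By limma 0 were called, and 0 passed the filter on each array. At an unadjusted p under 0.05 by limma 1 was higher, as were 1279 of all 25975 tested probes. Their median ratio was 0.46 on replicate 1 and -0.07 on replicate 2, with 19 of 20 genes higher on replicate 1 (49.8% of all genes) and 7 of 20 on replicate 2 (49.9% of all genes). The genes were long, with a median of 73.7 kb against 21.4 kb for all tested genes, and after removal of the length trend the medians were 0.30 and -0.08. Src, a kinase recruited by KIT, had ratios of 0.47 and 0.44 (adjusted p = 0.524), and Cbl, the ubiquitin ligase that ends KIT signaling, 0.99 and -0.19 (adjusted p = 0.638). Opposite signs on the arrays were found in 12 of the 20 genes, while 7 were higher and 1 was lower on both.

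Other channel genes were described by lists of the same kind, in which limma called 0 genes. Their counts at an unadjusted p under 0.05 stand beside 1161 lower and 1279 higher among all 25975 tested probes. Of further voltage-gated calcium channel genes 9 were tested, with medians of 0.18 and -0.16 on replicate 1 and 2 (1 lower and 0 higher at an unadjusted p under 0.05). Cacna1a, a neuronal calcium channel, had -0.71 and -0.23 (adjusted p = 0.518), and Cacnb3, a regulatory subunit, 0.22 and 0.08 (adjusted p = 0.875). Of 18 potassium channel genes 17 were tested, with medians of 0.07 and -0.21 (2 lower and 0 higher at an unadjusted p under 0.05). Here Kcnd3, which carries a transient outward current, had -0.28 and -1.17 (adjusted p = 0.145), and Kcnn2, a calcium-activated channel, 0.03 and -1.03 (adjusted p = 0.495). Of 19 genes for calcium stores, calcium entry, chloride loading and gap junctions 17 were tested, with medians of 0.37 and 0.01 (0 lower and 2 higher at an unadjusted p under 0.05). Itpr2, a calcium release channel of the endoplasmic reticulum, had 1.18 and -0.10 (adjusted p = 0.437), and Slc12a2, the cotransporter that loads chloride for channels such as ANO1, had 0.81 and 0.17 (adjusted p = 0.485).

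**Figure D5:**
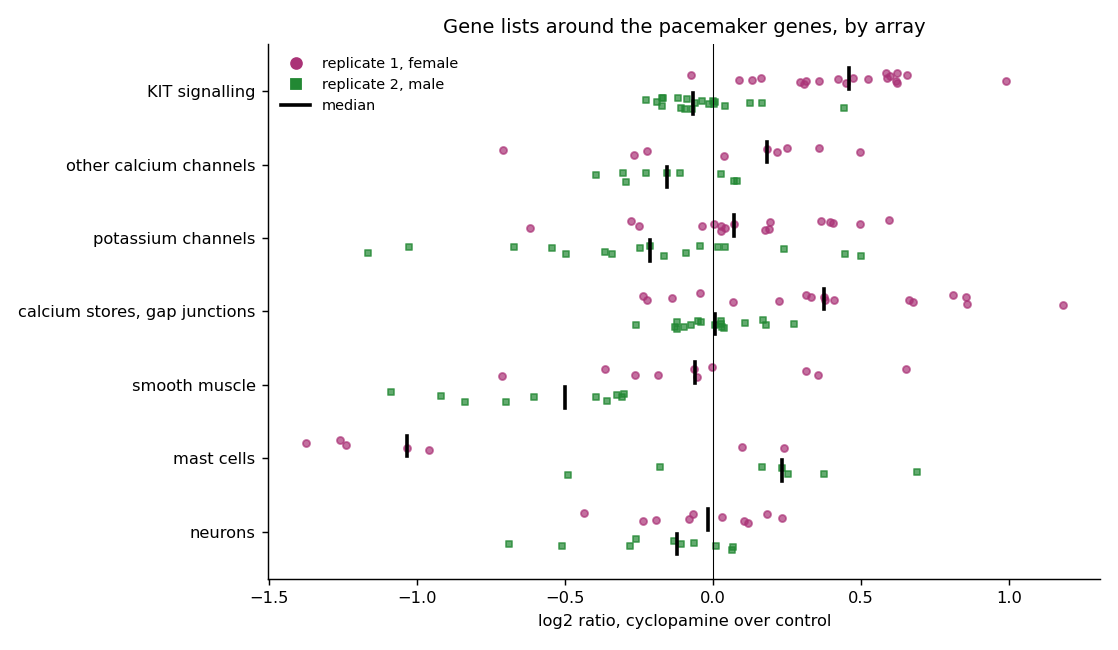
Log2 ratios of cyclopamine over control for the tested genes of 7 lists, with a dot per gene, circles for replicate 1, squares for replicate 2 and black ticks for the medians. KIT signaling genes lie mostly above 0 on replicate 1 (median 0.46) and around 0 on replicate 2, whereas mast cell genes have a median of -1.03 on replicate 1 and 0.23 on replicate 2.

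Markers of cells that carry KIT or these channels were set beside the ratios. Mast cells and melanocytes both carry KIT. Of 10 mast cell genes 7 were tested, and Fcer1a, Ms4a2 and Mrgprb1 were too dim. The medians were -1.03 on replicate 1 and 0.23 on replicate 2, and the summed intensity of the list was 23308 and 21544 in the control and cyclopamine pools of replicate 1 and 4304 and 3929 in those of replicate 2. Most of this sum came from Gata2, which other cells express too, with 14714 and 17390 on replicate 1. On replicate 1, 5 of the 7 genes were lower, all of them protease genes, such as Cpa3 (-1.03 and 0.17), Cma1 (-1.24 and 0.23) and Tpsb2 (-0.96 and 0.38). The other 2 were higher on it, Hdc with 0.10 and 0.25 and Gata2 with 0.24 and -0.18. Mcpt4 was called (-1.38 and -0.49, adjusted p = 0.0239 by limma). Of 8 melanocyte genes 5 were tested, with medians of 0.21 and 0.06. Of the pigment genes, Pmel (0.20 and 0.01) and the dimmer Tyr (0.07 and 0.06) were tested, while Dct, Tyrp1 and Mlana were too dim.

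SMC genes were lower on replicate 2 in 10 of 10 cases, where 49.9% of all genes were higher, and on both arrays in 7 of 10 (28.9% of all genes). Their medians were -0.06 and -0.50, and 4 were lower at an unadjusted p under 0.05 by limma. Among all 25975 tested probes 1161 were lower and 1279 higher at that limit. With the length trend removed the medians were 0.02 and -0.49, and 6 of 10 were higher on replicate 1. Actg2, an actin of visceral SMCs, was called (-0.71 and -1.09, adjusted p = 0.0251). In a list of 8 genes of ureter mesenchyme and pacemaker-like interstitial cells, 7 were tested, with medians of 0.30 and -0.14. Of these, 2 were lower and 1 was higher at an unadjusted p under 0.05 by limma. Foxf1, a transcription factor gene of hedgehog-responsive mesenchyme, was called (-0.68 and -1.27, adjusted p = 0.0127). Pdgfra, a receptor gene of interstitial cells that was picked after its values were seen, had 1.27 and 0.01 (adjusted p = 0.266), so that here too the ratio of replicate 1 stood apart. Isl1, of the same list and also picked after its values were seen, went the other way with -0.73 and -0.61 (adjusted p = 0.180 by limma). Neuron genes had medians of -0.02 and -0.12 (10 of 10 tested, 0 called and 0 at an unadjusted p under 0.05) and urothelium genes of 0.14 and 0.12 (10 of 10 tested, 0 called and 1 higher at an unadjusted p under 0.05). All 8 genes of the lamina propria, a list the study chose on these arrays, were lower on both arrays and 5 were called. The part of any cell type in the ratios of the pacemaker genes was not tested.

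The genes most like Kitl in their ratios were sought among 124 tested genes of these lists. By the Euclidean distance over both ratios they were Ckm (-0.36 and -0.70, distance 0.191), Tagln (-0.19 and -0.32, 0.236) and Prph (-0.08 and -0.51, 0.249). Over all 19398 tested genes, 454 lay closer to Kitl than the third of them.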

How the data were processed

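Groups, sex and dyes came from the labels. The authors made the deposited intensity values per spot and channel in Agilent's Feature Extraction software, version 12.2.0.7 by the file headers and 10.7.3.1 by the labels. It subtracted background and balanced the dyes by LOWESS within an array. A log10 ratio of red to green was also deposited and served only to check directions. The authors' deposited series table holds a score per probe, a rounded signed fold change already turned to cyclopamine over control, and served as an alternative. The deposited flags for background, outliers and saturation are other values of the software. The solvent is DMF per the labels, and the methods name ethanol for cyclopamine.

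Control spots and outlier spots (2.89% and 3.15%) were left out, none was saturated, and the log2 values of up to 4 spots per probe were averaged. LOWESS dye balancing within an array can remove a change that affects all genes. Probes entered the test if a share of 0.5 or more of the spots exceeded background clearly (flag of the software) on both arrays, in the control or in the cyclopamine channel. The 25975 probes were fitted in limma 3.58.1 (R 4.3.3; lmFit, eBayes) without an intercept, with +1 and -1 coding the dye orientation, and p-values were adjusted after Benjamini and Hochberg with a limit of 0.05. The 2 arrays leave 1 residual degree of freedom per probe, and the variance rests mostly on the prior (51.9 degrees of freedom, SD 0.323). The p-values therefore set each mean ratio mainly against a spread between arrays that is shared by all probes. The spread between the 2 arrays of a single gene adds little to them. With only 2 arrays, each mean ratio is known only roughly. An exact sign-flip test on 2 arrays cannot go below p = 0.5. Tested on simulated data for cyclopamine against control over 25975 probes, the fit called 50% of 100 probes changed by 1 and 100% of 100 probes changed by 2 on the log2 scale, with 2 false calls. The filter with the limits of the study (control above 100, 1.5-fold on each of the 2 arrays) only approximates the original, whose intensity scale is not given in the sources used here. Probe positions and sequences are those of the array annotation (mm9), and gene lengths and current names came from the RefSeq table of GRCm38.p6, matched by accession for 28328 probes.

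The members and lists were chosen with earlier results of these data known. Named were all members, Ptch1, Gli1, Acta2, called genes of each list or else the 2 with the largest mean change, and the 3 genes nearest to Kitl. Cpa3, Cma1, Tpsb2, Hdc, Gata2, Pmel, Tyr, Isl1 and Pdgfra were named after their values were seen. For lists of other cell types mainly counts and medians are given. The alternatives were normexp with loess, the series table values, channels as separate samples, an intensity trend in the prior, other filters, the length trend removed by lowess (span 0.667), the mean over all probes of a gene, outlier spots kept, other limits of the filter and leaving out each array.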

Additional observations from a re-analysis of the deposited data

Results flagged for a closer look

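In 4 of the 8 tested genes the female pools (replicate 1) had a higher level with cyclopamine and the male pools (replicate 2) a lower level. The log2 ratio of the female minus that of the male pools was 0.137 for Hcn2, 0.866 for Cacna1g, 0.384 for Cacna1d and 0.904 for Ano1. With 1 array for each sex the difference was not tested, and sex cannot be told apart from dye orientation. For Hcn2 another probe gave the opposite order (-0.22), while for Cacna1g (0.47) the other probe kept it. The other Cacna1d probe had the same order (0.32) but was higher with cyclopamine on both arrays. The same order of signs was found in 21.1% of all tested genes.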

How the results depend on the processing

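By its main probe, or by the mean over its probes, no member was called by limma in the main setting or in the alternatives that give a test, and the lowest adjusted p was 0.219, for Kitl with the length trend removed. The other Cacna1h probe was called in that setting (adjusted p = 0.0235). Under the alternatives that keep both arrays, 71 of 72 values of the members kept their direction and side of the threshold. In these settings Kitl ranged from -0.53 to -0.41, Kit from 0.18 to 0.30, Hcn3 from 0.06 to 0.20 and Ano1 from 0.18 to 0.34. Cacna1h ranged from -0.44, with the mean over its tested probes, to -0.19. Cacna1d turned to -0.0554 with the length trend removed. Leaving out an array leaves the ratio of the other, with no test, and Hcn2, Cacna1g, Cacna1d and Ano1 (-0.14 without replicate 1, 0.76 without replicate 2) then change sign with the array, while Kit is 0.02 or 0.56 and Kitl -0.51 or -0.33. The median of the members ranged from -0.127 without replicate 1 to 0.169 without replicate 2. No member passed the study filter, apart from 1 of 7 (Ano1), higher, without replicate 2 (range 0 to 1). In that setting 1362 of all 16900 eligible genes passed as higher. Over all probes limma called 200 lower and 118 higher (37.1% higher). With normexp and loess these were 44 and 13 (22.8% higher), without the filter on dim probes 216 were higher, and with the length trend removed 195 were higher. With the series table values there were 0 and 0 (818 and 1051 at an unadjusted p under 0.05), and likewise 0 and 0 with channels as separate samples, that is without the pairing of channels by replicate block (291 and 230). The cause was not tested. The 95% intervals of the 8 main probes stay within a fold of 0.546 to 1.71, and that of the other Cacna1h probe reaches 0.450. Their width comes mostly from the prior shared by all probes (51.9 degrees of freedom against 1 residual), not from the 2 arrays of a gene. They therefore do not exclude a 2-fold change in a single gene. In the simulated data, which gave both arrays the same noise, the fit called 50% of the probes changed by 1 on the log2 scale. Recovery on the real arrays was not tested. Smaller changes are not resolved with 2 arrays. Hcn3 was dim and Hcn4 not well above background.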
